A study of Arabidopsis thaliana with 12 samples.

Results

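Gene expression in Arabidopsis rosettes kept in continuous darkness was compared between the middle of the night and the middle of the subjective day, the part of the cycle in which the plants would have had light. The comparison rests on the 3 arrays whose titles name them night-time controls and the 3 whose titles name them day-time controls, 6 of the 12 arrays of the series. Plants of these 6 samples had no light pulse before collection. The other 6 arrays carried rosettes sampled after 1 h of white light at the same times, and they enter below only to measure the spread between arrays and for a side-by-side comparison.

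All samples were aerial rosettes of wild-type seedlings of the Columbia ecotype, 15 days old, raised in 12 h light and 12 h dark cycles under white light and then moved to constant darkness. Total RNA was hybridized to Affymetrix ATH1 arrays, on which each probe set measures a transcript. Night samples carry the label CT 6 and those of the subjective day CT 18, circadian times in hours. By the usual count from subjective dawn these hours would lie in the day and in the night, and no source used here says whether they run from lights-off. If they do, the day samples had also spent longer in the dark. Time of day and hours of darkness cannot be told apart in this design.

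Leaves feed their night metabolism from starch stored in the light, and the plant clock sets the rate at which that store is spent. When sugar runs out, leaf cells are known to turn to their own proteins and lipids: amino acids are oxidized in mitochondria, autophagosomes deliver cytoplasm to the vacuole, and synthesis of new ribosomes and cell wall slows. The clock separately times many transcripts, among them evening genes such as GIGANTEA.

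Signals below are normalized and have no unit, groups are given as mean ± SD over 3 arrays, and differences are limma estimates of log2 night minus day ± SE with 3 arrays in each group. A negative difference means a higher level in the subjective day, and list medians are medians of these log2 differences over the genes tested. A gene counts as called where limma's p, adjusted by Benjamini-Hochberg over all 13647 probe sets tested, was under 0.05, and folds are ratios of group means. The labels do not say that replicates came from separate plants, so p-values measure the spread between these arrays, whose number limits the precision. Where a group mean lay under 21.75, the lowest mean signal kept by the filter, its arrays were raised to at least that signal and the fold is given as "at least".

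Nearly as many probe sets differed between night and subjective day as did not. Of 13647 probe sets tested, 6602 were called, 48.4% of those tested, with 3511 (25.7%) higher at night and 3091 (22.6%) higher in the subjective day, and 4169 differed at least 2-fold. Of the calls 53.2% were higher at night, but 81.1% without normalization and 39.2% with arrays centred on their medians, scalings that moved the median difference of all probe sets from 0.02 to 0.55 and -0.19. The split between directions depends on the scaling, and where a count moves by more than 1.5 times under either, or when 1 array is left out, the other count is given. Taking 1 probe set per named gene, 7278 genes were tested and 3381 called (46.5%), 1744 higher at night (24.0%) and 1637 higher in the day (22.5%), with a median difference of -0.01. These shares are the background for every list below, and on 59.2% of genes (60.4% of probe sets) the night and day control arrays did not overlap. Members and lists were chosen with earlier results of these data known, and most lists were drawn from genes that had passed the filter. The direction of a list against these shares is therefore not independent evidence.

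The 3 night control arrays correlated at 0.967 to 0.974 over the probe sets tested and the 3 day control arrays at 0.909 to 0.957. Median raw signals were 47.7 to 50.5 on the night controls and 25.0 to 33.7 on the day controls. For GAPDH, whose 3' over 5' signal rises as RNA degrades, that ratio was 8.75 for day control replicate 2 and lay between 2.30 and 3.83 in the remaining 5 control samples. The same ratio for actin was 18.0 to 27.6 on the 6 control arrays, 27.6 on day control replicate 2. Of 15 green-leaf markers RCA alone had a named probe set, with 8413, 7480 and 7251 on the night control arrays and 4568, 2626 and 4568 on the day control arrays, a night-higher call that was lost with median centring (adjusted p = 0.232). Of 10 root markers 6 had a named probe set, 0 passed the filter, 5 had both group means under 21.75, and their summed signal was 44.4 to 68.4 on the night controls and 20.8 to 100.4 on the day controls. Fewer cells of a type and less RNA per cell cannot be told apart in such whole-rosette samples.

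The 12 genes with the largest fitted differences toward the subjective day included 2 of amino acid breakdown. AT4G33150, named LKR/SDH in the reference gene table and encoding the enzyme that starts lysine breakdown, had signals of 67.0, 58.6 and 80.0 on the night control arrays and 2930, 4329 and 4077 on the day control arrays. The groups were far apart, with a 55.1-fold difference (log2 -5.74 ± 0.25, adjusted p = 4.5e-09). AT2G32150 read 116, 72.9 and 97.4 on the night control arrays and 3062, 4120 and 4156 on the day control arrays, a 39.6-fold difference. AT1G07040 was 30.3-fold higher in the day (log2 -4.89 ± 0.19), AT1G72060 47.7-fold (log2 -5.53 ± 0.28) and AT1G19540 37.4-fold (log2 -5.14 ± 0.24), and the tables used here give no name or role for these loci. AT4G37220, AT1G19530, AT5G39520, AT3G19390 and AT4G39675 had means under 21.75 at night, so their folds are lower bounds. AT1G19530 had signals of 21.0, 9.62 and 20.2 at night and 2080, 3781 and 2476 in the day, at least 128-fold (adjusted p = 3.3e-07) higher. The bounds were at least 63.7-fold (adjusted p = 1.4e-07) for AT5G39520, at least 58.1-fold (adjusted p = 1e-07) for AT4G37220, at least 29.1-fold (adjusted p = 3.4e-08) for AT3G19390 and at least 12.1-fold (adjusted p = 2.1e-05) for AT4G39675. MGL and GI completed the 12 and are described with their groups. The 12 were ranked by the fitted difference, which uses signals under the 21.75 bound, so some that are given as bounds have smaller supported folds than genes outside the 12.

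The same ranking toward the night, with the same limit, was led by GSTU20 (AT1G78370), a glutathione transferase of the tau class. Its signals were 479.9, 357 and 599.7 on the night control arrays and 27.1, 6.11 and 14.9 on the day control arrays, at least 20.3-fold (adjusted p = 4.4e-07) higher at night. scpl46 (AT2G33530) and scpl35 (AT5G08260) encode serine carboxypeptidase-like proteins. The second of these read 642, 554 and 642 on the night control arrays and 53.2, 32.0 and 27.8 on the day control arrays, a 16.3-fold difference without overlap (log2 4.0 ± 0.25, adjusted p = 7.1e-08). AT3G22240, without a name in the tables used here, read 1220, 3745 and 1370 on the night control arrays and 94.2, 141 and 110.0 on the day control arrays, without overlap. AT3G48420 was 14.7-fold higher at night (log2 3.83 ± 0.16), AT4G30020 14.9-fold (log2 3.83 ± 0.26) and AT4G29030 15.1-fold (log2 3.93 ± 0.41). Other night-higher loci of the 12 had means under 21.75 in the day: AT4G12830 was at least 7.45-fold (adjusted p = 1.3e-07) higher at night, AT5G62140 at least 5.39-fold (adjusted p = 3.7e-05), AT1G06000 at least 5.00-fold (adjusted p = 5.8e-07) and AT3G03770 at least 3.38-fold (adjusted p = 2e-07). The same held for scpl46, at least 5.93-fold (adjusted p = 7.1e-08) higher at night. GH9B8, also with a mean under 21.75 in the day, completed the 12 and is described with the wall genes.

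**Figure D1:**
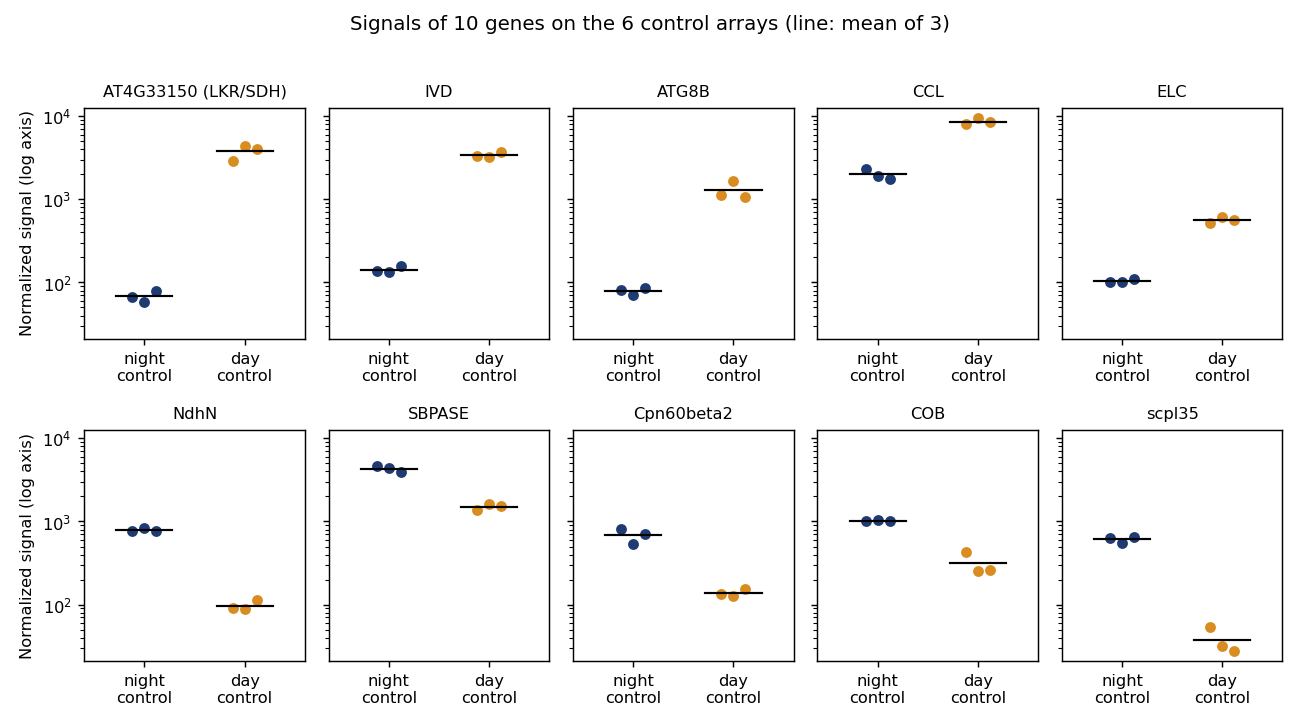
Normalized signal (log axis) of 10 genes on each of the 3 night control and 3 day control arrays, with points for arrays and a line at the group mean. AT4G33150, IVD, ATG8B, CCL and ELC were higher on all 3 day control arrays, and NdhN, SBPASE, Cpn60beta2, COB and scpl35 on all 3 night control arrays.

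Clock-linked genes were called in both directions. Of 6 such genes tested, 3 were higher in the subjective day, 1 at night and 2 were not called (median difference -1.23). These 6 are no full set of core clock genes, so the state of the core clock was not surveyed. GI (AT1G22770) encodes GIGANTEA, a clock protein with evening-phased expression in plants kept in light and dark cycles. It read 19.4, 2.35 and 5.63 on the night control arrays and 359, 240.5 and 259 on the day control arrays, at least 13.2-fold (adjusted p = 1.1e-06) higher in the day. CCL (AT3G26740), whose transcript is known for its short life and daily rhythm, read 2343, 1935 and 1770 on the night control arrays and 7972, 9503 and 8413 on the day control arrays, a 4.28-fold difference (log2 -2.10 ± 0.14, adjusted p = 1.6e-07). AT1G69570, listed with them but without a name in the tables used here, was at least 4.57-fold (adjusted p = 0.00052) higher in the day, from a mean under 21.75 at night to 99.4 ± 2.24. COR27 (AT5G42900), which encodes a light- and cold-regulated repressor of evening genes, went the other way, with 158, 174 and 169 on the night control arrays and 71.0, 98.5 and 84.2 on the day control arrays, a 1.97-fold difference (adjusted p = 0.018). Without night control replicate 2 this call was lost (adjusted p = 0.055), as it was without night control replicate 3 (0.0535) and without day control replicate 1 (0.0561). AT5G52660 (log2 -0.35 ± 0.32, adjusted p = 0.39) and AT4G33980 (0.05 ± 0.58, 0.95) were not called, and their groups overlapped. Of 6 further clock-associated genes tested, TKL, TIC, XCT, LIP1, FIO1 and STIPL1, 1 was higher at night, 0 in the day and 5 were not called (median 0.16, as low as 0.08 leaving out day control replicate 2, as high as 0.19 leaving out day control replicate 1). TKL (AT3G63180) read 85.3, 79.8 and 95.2 on the night control arrays and 68.5, 40.2 and 43.1 on the day control arrays (log2 0.79 ± 0.28, adjusted p = 0.031). Its call was lost without the filter on low signal (adjusted p = 0.0519) and when any 1 control array other than day control replicate 1 was left out (adjusted p of 0.0522 to 0.105). The night-higher and day-higher counts were 2 and 0 without normalization, and 0 and 0 without night control replicate 1, 2 or 3 or day control replicate 2 or 3.

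Light signalling genes were called in both directions, at shares near those of all genes. Of 7 tested, 2 were higher at night and 2 in the day (median -0.35, -0.22 without night control replicate 2). Each share was 28.6%, against 24.0% and 22.5% of all genes. HYH (AT3G17609), a bZIP transcription factor related to HY5 that promotes light responses, was at least 4.82-fold (adjusted p = 1.5e-06) higher at night, with 98.4, 115 and 124 on the night control arrays and 14.3, 24.9 and 23.2 on the day control arrays. AFR (AT2G24540), an F-box protein that promotes phytochrome A signalling, was 2.01-fold higher at night (log2 0.98 ± 0.24). SPT (AT4G36930), a bHLH factor that restrains growth, was at least 2.09-fold (adjusted p = 0.0043) higher in the day, and this call was lost without normalization (adjusted p = 0.365). Night-higher and day-higher calls numbered 2 and 0 without normalization, and 2 and 1 without night control replicate 1, 2 or 3 or day control replicate 2 or 3.

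Genes of amino acid breakdown were mostly higher in the subjective day. Of 14 tested genes 12 were higher in the day, 0 at night and 2 were not called, against 22.5% and 24.0% of all genes, with a median difference of -2.86. Without normalization 10 were higher in the day and 1 at night, and with median centring 13 and 0. Beside LKR/SDH stood MGL (AT1G64660), methionine gamma-lyase, which splits methionine and read 64.0, 41.1 and 79.3 on the night control arrays and 2277, 1912 and 1744 on the day control arrays. It was 32.2-fold higher in the day (log2 -5.00 ± 0.23, adjusted p = 6.6e-09). Leucine breakdown was represented by IVD (AT3G45300), isovaleryl-CoA dehydrogenase, with 138, 133 and 157 on the night control arrays and 3302, 3198 and 3735 on the day control arrays. Its groups differed 23.9-fold (log2 -4.56 ± 0.17). MCCB (AT4G34030), a subunit of methylcrotonyl-CoA carboxylase, the next enzymes of that route, read 252, 239 and 255 on the night control arrays and 3652, 4514 and 4171 on the day control arrays, a 16.5-fold difference. ETFQO (AT2G43400), which hands the electrons released by these dehydrogenases to the respiratory chain, was 18.1-fold higher in the day, with 78.7, 72.7 and 87.7 on the night control arrays and 1733, 1138 and 1448 on the day control arrays. For each of these 5 genes every day control array lay above every night control array.

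Genes for oxidizing aldehydes and fats had day-higher calls and no night-higher ones by limma. Of 8 aldehyde dehydrogenase genes 3 were higher in the day and 0 at night (median -0.47, -0.29 without day control replicate 1). In the order night and day, the counts were 1 and 2 without normalization, 0 and 6 with median centring, and 0 and 5 without day control replicate 2. ALDH6B2 (AT2G14170), which acts in valine breakdown, read 601, 409 and 492 on the night control arrays and 4380, 5380 and 4838 on the day control arrays, a 9.72-fold difference. ALDH7B4 (AT1G54100), an antiquitin-type enzyme linked to stress, read 529, 338 and 597 on the night control arrays and 4951, 5587 and 5989 on the day control arrays, an 11.3-fold difference. Of 6 genes of fat breakdown and the steps that follow it, 4 were higher in the day and 0 at night (median -1.23). PPDK (AT4G15530), pyruvate orthophosphate dikinase, which can return carbon skeletons toward sugars, was 12.1-fold higher in the day (log2 -3.63 ± 0.19). SDP1 (AT5G04040), the lipase that opens stored triacylglycerol, read 97.8, 108 and 146 on the night control arrays and 701, 478 and 531 on the day control arrays, and PAHX (AT2G01490), which oxidizes phytanoyl-CoA from chlorophyll, was 2.58-fold higher in the day. Among 5 genes of the energy-sensing kinases SnRK1 and TOR, 1 was higher in the day and 1 at night (median 0.05, as low as -0.10 leaving out day control replicate 2, as high as 0.29 leaving out day control replicate 1). AKINBETA1 (AT5G21170), a regulatory subunit of SnRK1, read 718, 609 and 586 on the night control arrays and 4033, 4750 and 4873 on the day control arrays, a 7.14-fold difference (log2 -2.83 ± 0.23), and RAPTOR2 (AT5G01770), of the TOR complex, was at least 1.54-fold (adjusted p = 0.0039) higher at night.

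Autophagy genes were higher in the subjective day. The median difference was -1.58. All 11 tested genes, from a list chosen with earlier results known, were higher in the day (22.5% of all genes were). The count was 8 without normalization, 11 with median centring and 9 without day control replicate 2. ATG8 proteins coat the growing autophagosome and recruit its cargo. ATG8B (AT4G04620) read 80.4, 71.0 and 85.5 on the night control arrays and 1135, 1676 and 1070 on the day control arrays, a 16.4-fold difference (log2 -3.97 ± 0.26, adjusted p = 1e-07). APG8A (AT4G21980), another member of the family, was 5.48-fold higher in the day (log2 -2.43 ± 0.18). ATG8F (AT4G16520) rose from 1010, 1006 and 811 on the night arrays to 3152, 4811 and 4033 on the day arrays, and APG8H (AT3G15580) from 623, 633 and 609 to 1395, 1961 and 1554. AT5G66930, named ATG101 in the reference table and part of the kinase complex that starts autophagosomes, was 3.04-fold higher in the day (log2 -1.58 ± 0.16).

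Of the ESCRT, VPS and protease genes listed, more were called higher in the day than at night, with exceptions. Of 14 tested ESCRT and VPS genes, whose products sort membrane proteins into vacuole-bound vesicles, 6 were higher in the day and 2 at night (median -0.49). The shares were 42.9% and 14.3%, where all genes had 22.5% and 24.0%. With other settings the list had night-higher and day-higher counts of 1 and 7 without night control replicate 2, and 1 and 6 without night control replicate 3 or day control replicate 2 or 3. ELC (AT3G12400), the ubiquitin-binding ESCRT-I subunit, read 102, 101 and 109.7 on the night control arrays and 513, 614 and 572 on the day control arrays, a 5.44-fold difference (log2 -2.42 ± 0.16). VPS60.1 (AT3G10640), VPS2.1 (AT2G06530) and VPS20.1 (AT5G63880) of ESCRT-III differed by -1.86 ± 0.23, -1.30 ± 0.19 and -1.56 ± 0.29. Of 5 vacuolar and secreted protease genes, 2 were higher in the day and 1 at night (median -0.72). Night-higher and day-higher members came to 1 and 1 without normalization. GAMMA-VPE (AT4G32940), a vacuolar processing enzyme that activates other hydrolases, read 325, 279.7 and 276 on the night control arrays and 899, 940.5 and 873 on the day control arrays. The subtilase ARA12 (AT5G67360) was higher at night, with 769, 743 and 905 on the night control arrays and 427, 51.1 and 97.3 on the day control arrays, and day control replicate 1 lay far above the other 2 day arrays.

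Ubiquitin genes were called in both directions. Of 17 tested RING and U-box ligase genes, which choose the proteins to be tagged, 5 were higher in the day and 0 at night (median -0.42, -0.68 without day control replicate 3). The counts higher at night and in the day were 3 and 3 without normalization, 0 and 9 with median centring, 1 and 6 without night control replicate 3, and 2 and 6 without day control replicate 1. ATL8 (AT1G76410) read 50.6, 36.4 and 33.5 on the night control arrays and 1480, 665 and 928 on the day control arrays, a 25.5-fold difference (log2 -4.55 ± 0.37), and LUL2 (AT3G53410) and LUL1 (AT5G03200) differed by -1.80 ± 0.20 and -1.76 ± 0.26. Of 11 ubiquitin-conjugating enzyme genes, 3 were higher in the day and 0 at night (median -0.28). Calls at night and in the day came to 2 and 3 without normalization, 0 and 6 with median centring, and 1 and 3 without night control replicate 2 or day control replicate 1. UBC32 (AT3G17000), which acts in the breakdown of misfolded proteins at the endoplasmic reticulum, was 2.92-fold higher in the day, UBC16 (AT1G75440) 3.82-fold and UBC22 (AT5G05080) 2.74-fold. Ubiquitin-specific proteases, which remove the tag, went the other way: 5 of 12 were higher at night and 1 in the day (median 0.23). Members called at night and in the day numbered 6 and 0 without normalization, and 5 and 3 with median centring. UBP23 (AT5G57990) was 2.90-fold higher at night (log2 1.55 ± 0.23) and UBP24 (AT4G30890) 1.96-fold, while UBP21 (AT5G46740) was at least 1.93-fold (adjusted p = 0.00044) higher. Of 10 heat-shock and co-chaperone genes, 4 were higher in the day and 0 at night (median -0.46, -0.26 without day control replicate 2). The night-higher and day-higher counts were 1 and 3 without normalization. Fes1C (AT5G02150) and Fes1B (AT3G53800), exchange factors of Hsp70, read 117, 111 and 99.0 and 94.9, 85.6 and 77.7 at night against 507, 545 and 574 and 208, 215 and 211 in the day, and HSA32 (AT4G21320), which prolongs heat tolerance, was 4.55-fold higher in the day.

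Transcripts of primary carbon metabolism did not differ in 1 direction. Of 12 genes of the tricarboxylic acid cycle and electron transfer 6 were higher at night and 2 in the day (median 0.38). Night-higher and day-higher calls numbered 6 and 0 without normalization and without day control replicate 3, 3 and 2 with median centring, 6 and 1 without night control replicate 2 or 3, and 5 and 1 without day control replicate 2. IDH-VI (AT3G09810), a subunit of mitochondrial isocitrate dehydrogenase, read 164, 115 and 167 on the night control arrays and 57.4, 21.4 and 39.3 on the day control arrays, and NDC1 (AT5G08740), an NAD(P)H dehydrogenase of mitochondria and plastids, was 2.48-fold higher at night. Of 11 starch and sugar genes, 4 were higher at night and 1 in the day (median 0.37). In the order night and day, the counts were 5 and 0 without normalization, 2 and 2 with median centring, and 4 and 0 without night control replicate 3 or day control replicate 3. ATSPS4F (AT4G10120), a sucrose-phosphate synthase and so on the route of sucrose export, read 544, 636 and 442 on the night control arrays and 96.8, 128 and 127 on the day control arrays, a 4.60-fold difference. PWD (AT5G26570), the dikinase that phosphorylates glucan chains so that starch can be broken down at night, was 4.45-fold higher at night, with 515, 609 and 666 on the night control arrays and 148, 107 and 148 on the day control arrays. Of 18 sugar transporter genes with a named probe set 11 passed the filter, 2 were higher at night and 0 in the day (median 0.03, as low as 0.01 leaving out night control replicate 3, as high as 0.18 leaving out day control replicate 1). With other settings the list had night-higher and day-higher counts of 1 and 1 with median centring, and 1 and 0 without night control replicate 1 or 2 or day control replicate 1. SWEET17 (AT4G15920), a fructose carrier of the vacuole membrane, read 115, 103 and 109.7 on the night control arrays and 26.9, 37.0 and 37.2 on the day control arrays, a 3.25-fold difference.

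Nuclear genes for building and maintaining chloroplasts were mostly higher at night. Of 26 genes for plastid assembly, division and RNA editing, 21 were higher at night, 0 in the day and 5 were not called, with a median difference of 1.05, and 22 were higher at night without normalization and 17 with median centring. The mean log2 signal of these genes was 7.34 to 7.47 on the night control arrays and 6.13 to 6.29 on the day control arrays. Cpn60beta2 (AT3G13470), a subunit of the chaperonin that folds Rubisco and other stromal proteins, read 801, 537 and 699.8 on the night control arrays and 133, 128 and 152 on the day control arrays, a 4.94-fold difference (log2 2.27 ± 0.18, adjusted p = 5.7e-07). Cpn60beta4 (AT1G26230), a related subunit, was 4.3-fold higher at night. HCF101 (AT3G24430), which delivers iron-sulfur clusters to photosystem I, read 652, 722 and 622 on the night control arrays and 146, 158 and 119 on the day control arrays. FTSZ2-2 (AT3G52750), part of the plastid division ring, was 4.96-fold higher at night, and LPA2 (AT5G51545), a factor for photosystem II assembly, 2.46-fold.

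Genes for the redox systems of the plastid and for chlorophyll synthesis were called higher at night and not in the day by limma. Of 13 genes 8 were higher at night and 0 in the day (median 0.54). Night-higher and day-higher members came to 5 and 2 with median centring, 5 and 0 without night control replicate 1 or 2 or day control replicate 2, and 5 and 1 without day control replicate 1. ty2 (AT1G43560), thioredoxin y2, read 978, 1093 and 1211 on the night control arrays and 137, 155 and 134 on the day control arrays, a 7.71-fold difference (log2 2.93 ± 0.31). THX (AT1G50320), thioredoxin x, and NTRC (AT2G41680), the NADPH-dependent reductase that keeps stromal thiols reduced in the dark, differed by 1.59 ± 0.17 and 1.77 ± 0.20. SAPX (AT4G08390), the stromal ascorbate peroxidase, was 3.89-fold higher at night. Chlorophyll synthesis had 7 of 11 genes higher at night and 0 in the day (median 0.77). The counts higher at night and in the day were 5 and 1 with median centring. LIL3:1 (AT4G17600), a thylakoid protein that stabilizes the enzyme making the chlorophyll tail, read 833, 1047 and 1084 on the night control arrays and 146, 247 and 224 on the day control arrays, a 4.80-fold difference, and its relative LIL3:2 (AT5G47110) 2.18-fold. GSA1 (AT5G63570) and HEMB1 (AT1G69740), early enzymes of tetrapyrrole synthesis, differed by 1.75 ± 0.27 and 1.02 ± 0.15, and CHLI2 (AT5G45930), a magnesium chelatase subunit, by 1.62 ± 0.18.

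Genes for the photosynthetic complexes themselves were mixed. Of 20 nuclear genes for thylakoid complexes 7 were higher at night and 5 in the day (median -0.06, as low as -0.20 leaving out day control replicate 2, as high as 0.00 leaving out night control replicate 2), and with median centring the balance turned, 6 at night and 12 in the day, while without normalization it was 8 and 2. NdhN (AT5G58260) and NdhL (AT1G70760), subunits of the NDH complex of cyclic electron flow, were higher at night, the first with 762, 831 and 761 on the night control arrays and 90.6, 88.1 and 113 on the day control arrays, an 8.07-fold difference, the second 3.09-fold. CaS (AT5G23060), the calcium sensor of the thylakoid, read 1566, 2218 and 1854 on the night control arrays and 227, 258 and 237 on the day control arrays, a 7.80-fold difference. LHCB4.3 (AT2G40100), a minor antenna protein, was 6.33-fold higher at night. In the opposite direction, PGRL1B (AT4G11960), also of cyclic electron flow, read 73.9, 111 and 78.2 on the night control arrays and 203, 441 and 354 on the day control arrays, and PSAN (AT5G64040), a luminal subunit of photosystem I, 2875, 2545 and 2155 on the night control arrays and 3745, 4838 and 5176 on the day control arrays. Of 4 genes of the Calvin cycle and photorespiration, 3 were higher at night and 1 in the day (median 0.75). Calls at night and in the day came to 1 and 1 with median centring. SBPASE (AT3G55800), sedoheptulose bisphosphatase, read 4625, 4445 and 3936 on the night control arrays and 1370, 1604 and 1538 on the day control arrays, and HPR (AT1G68010), the peroxisomal reductase of photorespiration, read 4093, 4144 and 3847 on the night control arrays and 5341, 6550 and 6415 on the day control arrays.

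**Figure D2:**
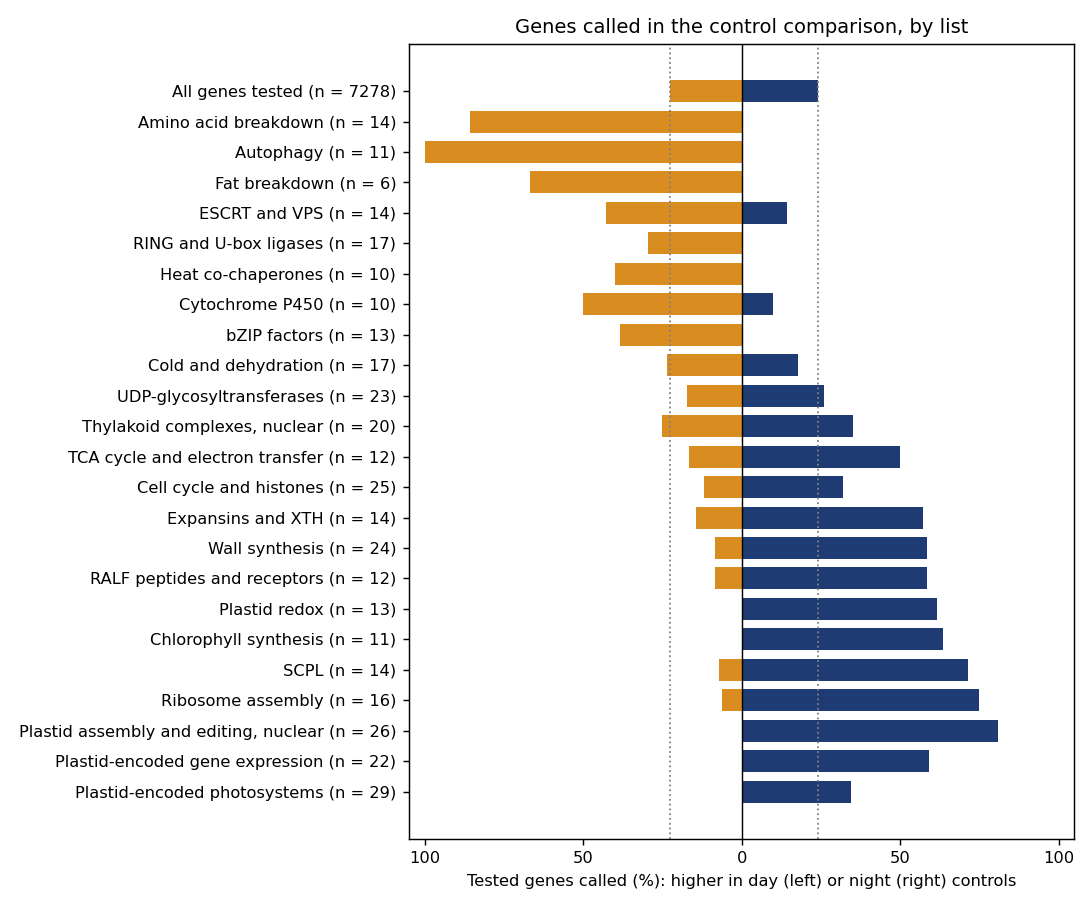
Share of tested genes called higher in the night controls (right, blue) or in the day controls (left, orange) for all genes and 23 lists, with dotted lines at the shares of all genes. Autophagy lies wholly on the day side, while plastid assembly and editing has calls only on the night side.

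Genes encoded in the plastid genome also read lower in the day, but not on every array. Of 29 photosystem, cytochrome and Rubisco genes 10 were higher at night, of 16 NDH and ATP synthase genes 5, and of 22 genes for ribosomal proteins, RNA polymerase and the intron maturase 13. Their median differences were 0.90, 0.78 and 1.36, the first 2 rising to 1.35 and 1.18 without day control replicate 1. Limma called 0 of them higher in the day, with 0 at an unadjusted p under 0.05. With median centring the 3 counts were 1, 0 and 4, and without normalization 10, 6 and 13. The mean log2 signal of all 67 plastid-encoded genes was 10.10, 10.58 and 10.76 on the night control arrays and 10.22, 8.97 and 9.06 on the day control arrays. Day control replicate 1 thus lay within the night range and replicates 2 and 3 below it. Without day control replicate 1 the 3 counts were 18, 9 and 13, without replicate 2 they were 4, 1 and 6, and without replicate 3 they were 3, 0 and 5. Leaving out night control replicate 2 gave 6, 3 and 10, and replicate 3 gave 3, 2 and 7.

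Single plastid genes showed the same split between the day arrays. rbcL, the large subunit of Rubisco, read 1225, 1434 and 1738 on the night control arrays and 746, 77.1 and 88.5 on the day control arrays, so the groups did not overlap although day replicate 1 lay closer to the night arrays. Its call (log2 3.05 ± 0.96, adjusted p = 0.018) was lost without day control replicate 2 (adjusted p = 0.0785), without day control replicate 3 (0.0761) and without night control replicate 3 (0.0537). matK, the intron maturase, read 4811, 5558 and 5240 on the night control arrays and 3513, 543 and 526 on the day control arrays. rps18 and rpl33, ribosomal proteins, differed by 1.58 ± 0.34 and 1.47 ± 0.33, and the groups of both did not overlap. petA, cytochrome f, differed by 1.16 ± 0.32, and with median centring it was no longer called (adjusted p = 0.202). Nuclear plastid assembly genes did not share the split, since their mean log2 signal on day control replicate 1 (6.13) was the lowest of the 6 control arrays. Of 15 mitochondria-encoded genes with a named probe set 9 passed the filter and limma called 0, with 0 at an unadjusted p under 0.05 1 called without normalization and 2 called without day control replicate 1. Their mean log2 signal was 5.86, 5.92 and 6.07 on the night controls and 6.37, 5.05 and 4.98 on the day controls, again with replicate 1 apart. The GAPDH 3' to 5' ratio was 2.30 on day control replicate 1, 8.75 on replicate 2 and 3.83 on replicate 3, and its part in the plastid-encoded counts was not tested.

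**Figure D3:**
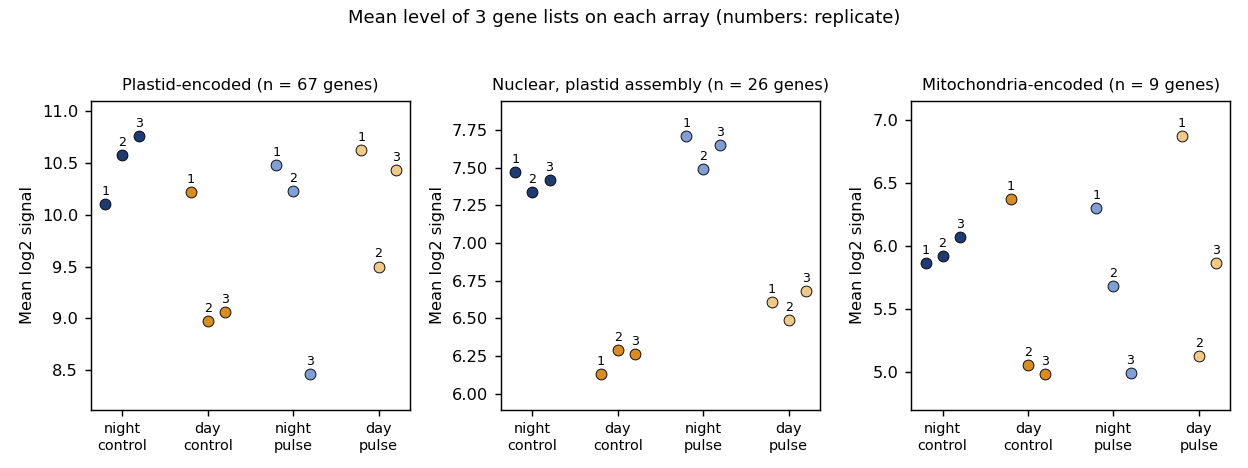
Mean log2 signal of 67 plastid-encoded genes, 26 nuclear genes for plastid assembly and editing, and 9 mitochondria-encoded genes on each of the 12 arrays, with the replicate number above each point and a separate axis for each panel. Day control replicate 1 stands at night-control level for plastid-encoded genes (10.22) and at the foot of the range for the nuclear list (6.13).

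Genes of wall building and growth were mostly higher at night. Of 24 wall synthesis and remodelling genes 14 were higher at night and 2 in the day (median 0.95), 17 and 2 without normalization and 13 and 2 with median centring. COB (AT5G60920), a membrane-anchored protein that orients cellulose, read 1025, 1053 and 1002 on the night control arrays and 433, 254 and 259.5 on the day control arrays, a 3.25-fold difference (log2 1.74 ± 0.22). CSLC5 (AT4G31590), which makes the xyloglucan backbone, and PMEPCRF (AT5G53370), a pectin methylesterase, were 2.65-fold and 3.19-fold higher at night, and the endoglucanase gene GH9B8 (AT2G32990) at least 2.35-fold (adjusted p = 7.1e-06). The 2 exceptions were FRA3 (AT1G65580), a phosphatase needed for secondary walls, with 175, 171 and 222 on the night control arrays and 518, 423 and 632 on the day control arrays, and CSLD2 (AT5G16910), a synthase of tip-growing cells, with 95.8, 97.2 and 88.8 on the night control arrays and 263, 245 and 211 on the day control arrays.

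Wall-loosening genes were measured less completely. Of 28 expansin and XTH genes with a named probe set 14 passed the filter, 8 were higher at night and 2 in the day (median 0.92). Members called at night and in the day numbered 5 and 2 without day control replicate 2. XTH32 (AT2G36870), a xyloglucan-cutting enzyme, read 194, 162 and 185 on the night control arrays and 35.4, 41.6 and 32.3 on the day control arrays, a 4.95-fold difference, whereas the expansin genes EXPA16 (AT3G55500) and EXLA1 (AT3G45970) were 4.88-fold and 3.33-fold higher in the day. Of 24 TBL genes, whose products acetylate wall polysaccharides, 16 passed the filter, with 5 higher at night and 1 in the day (median 0.33, 0.22 without day control replicate 1). The night-higher and day-higher counts were 8 and 0 without normalization, and 5 and 0 without night control replicate 3. TBL45 (AT2G30010) read 595, 406 and 444 on the night control arrays and 60.2, 104 and 58.9 on the day control arrays, and TBL37 (AT2G34070) and TBL25 (AT1G01430) differed by 1.18 ± 0.25 and 1.00 ± 0.21.

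IQD and RALF genes had night-higher shares above that of all genes, while the tubulin share (25.0%) was near the 24.0% of all genes. Of 16 tubulin and microtubule genes 4 were higher at night and 1 in the day (median 0.23, 0.37 without day control replicate 2), and all 4 were tubulins. Night-higher and day-higher calls numbered 7 and 0 without normalization, 4 and 2 with median centring, 4 and 0 without night control replicate 1, 2 or 3 or day control replicate 2 or 3, and 5 and 0 without day control replicate 1. TUA6 (AT4G14960), an alpha tubulin, read 1491, 1475 and 1243 on the night control arrays and 438, 219.9 and 325 on the day control arrays, and TUB9 (AT4G20890), a beta tubulin, 657, 672 and 667 on the night control arrays and 149.8, 228 and 179 on the day control arrays. TUB5 (AT1G20010) and TUB7 (AT2G29550) differed by 1.91 ± 0.28 and 1.32 ± 0.23. Tubulin genes are alike in sequence, and how far their probe sets tell them apart was not tested. Of 15 IQD genes, whose calmodulin-binding products sit on microtubules and membranes, 8 were tested, with 5 higher at night and 1 in the day (median 0.79). In the order night and day, the counts were 4 and 2 with median centring. IQD31 (AT1G74690) was 3.02-fold higher at night and iqd32 (AT1G19870) 2.52-fold higher in the day. Of 17 genes for RALF peptides and their receptor kinases 12 were tested, with 7 higher at night and 1 in the day (median 1.15). With other settings the list had night-higher and day-higher counts of 9 and 0 without normalization, 7 and 2 with median centring, 7 and 0 without night control replicate 1, 2 or 3 or day control replicate 1 or 3, and 8 and 0 without day control replicate 2. RALF peptides set wall acidity and cell expansion. RALFL24 (AT3G23805) read 142, 221 and 172 on the night control arrays and 27.8, 48.3 and 42.9 on the day control arrays, RALFL33 (AT4G15800) was 3.32-fold higher at night, RALFL34 (AT5G67070) 2.74-fold and RALFL22 2.62-fold. THE1 (AT5G54380), a receptor kinase that watches the wall, read 280.1, 408 and 263 on the night control arrays and 135, 132 and 134 on the day control arrays.

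Most of the listed genes for ribosome assembly and RNA polymerases had higher signals at night, while ribosome production itself was not measured. Of 16 genes for ribosome assembly and RNA polymerases I and III 12 were higher at night and 1 in the day, with a median difference of 0.91, and 11 and 8 were higher at night without normalization, where 0 were higher in the day, and with median centring. PRH75 (AT5G62190), a nucleolar RNA helicase, read 628, 673 and 672 on the night control arrays and 287, 179 and 220.3 on the day control arrays, a 2.88-fold difference. RBL (AT3G55510), YAO (AT4G05410) and DIM1A (AT2G47420), all of which act on pre-ribosomal RNA or particles, differed by 1.92 ± 0.28, 1.23 ± 0.24 and 1.16 ± 0.22, and NRPA2 (AT1G29940), the second subunit of RNA polymerase I, by 0.88 ± 0.18. Of 25 cell cycle and histone genes 8 were higher at night and 3 in the day (median 0.40). Night-higher and day-higher members came to 13 and 2 without normalization, and 9 and 5 with median centring. With a filter at the 60th percentile 14 were left, 4 higher at night and 3 in the day, with a median of -0.02. The histone H2B genes HTB1 (AT1G07790) and HTB2 (AT5G22880) were 5.28-fold and 2.97-fold higher at night, the first with 434, 370.0 and 416 on the night control arrays and 109.9, 62.3 and 58.8 on the day control arrays, and POLA3 (AT5G41880), of the DNA polymerase alpha complex, at least 2.96-fold (adjusted p = 8.4e-05). SKP2A (AT1G21410), an F-box protein that targets cell cycle factors, read 62.6, 61.0 and 75.7 on the night control arrays and 328, 339 and 423 on the day control arrays, and HIS1-3 (AT2G18050), a linker histone induced by drought, was 4.17-fold higher in the day.

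Serine carboxypeptidase-like genes, a family that includes acyltransferases of secondary metabolism, had 10 of 14 tested members higher at night and 1 in the day (median 1.03), out of 29 with a named probe set. The counts higher at night and in the day were 11 and 0 without normalization, 9 and 2 with median centring, and 10 and 0 without night control replicate 2. Beside scpl35 and scpl46, SCPL49 (AT3G10410), scpl50 (AT1G15000) and scpl42 (AT5G42240) differed by 1.25 ± 0.18, 1.87 ± 0.29 and 1.09 ± 0.19. The night share of this family was 71.4%, where 24.0% of all genes were higher at night. The list was chosen with earlier results of these data known, and 15 of its 29 genes were not tested. Its share is therefore not independent evidence.

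Secondary metabolism and defence held members of both kinds. Of 10 phenylpropanoid and flavonoid genes 4 were higher at night and 2 in the day (median -0.18, as low as -0.29 leaving out night control replicate 3, as high as 0.01 leaving out day control replicate 1), led by CHIL (AT5G05270), a chalcone isomerase-like protein that aids flavonoid synthesis, at least 2.52-fold (adjusted p = 1.7e-05) higher at night, and HCT (AT5G48930), of lignin synthesis, which read 667, 623 and 664 on the night control arrays and 284, 152 and 161 on the day control arrays. Calls at night and in the day came to 4 and 1 without normalization. CCOAMT (AT1G67980), a methyltransferase of the same pathway, was at least 6.53-fold (adjusted p = 1.6e-05) higher in the day. Of 47 UDP-glycosyltransferase genes 23 were tested, with 6 higher at night and 4 in the day (median -0.10, as low as -0.14 leaving out night control replicate 3, as high as 0.08 leaving out day control replicate 1). These shares, 26.1% and 17.4%, lay near the 24.0% and 22.5% of all genes. Members called at night and in the day numbered 7 and 1 without normalization. UGT76C2 (AT5G05860), which inactivates cytokinins by glucosylation, read 221, 331 and 213 on the night control arrays and 61.7, 31.8 and 41.1 on the day control arrays, a 5.68-fold difference, and UGT78D1 (AT1G30530), a flavonol rhamnosyltransferase, was 2.56-fold higher at night. Of 14 glutathione transferase genes 5 were tested, with 3 higher at night and 1 in the day (median 1.38). The night-higher and day-higher counts were 3 and 0 without normalization. GSTU18 (AT1G10360) and GSTU27 (AT3G43800) differed by 1.44 ± 0.21 and 1.38 ± 0.21. Of 23 cytochrome P450 genes 10 were tested, with 5 higher in the day and 1 at night (median -0.65). Night-higher and day-higher calls numbered 2 and 2 without normalization, and 3 and 6 without day control replicate 1. CYP71B23 (AT3G26210) read 29.5, 25.4 and 26.1 on the night control arrays and 211, 272 and 258 on the day control arrays, and CYP71B26 (AT3G26290) was 4.57-fold higher in the day.

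Glucosinolates are the defence compounds of this plant family. Of 6 such genes 3 were higher at night and 0 in the day (median 0.90). In the order night and day, the counts were 2 and 1 with median centring. BCAT4 (AT3G19710), the first enzyme of methionine chain elongation, was at least 8.79-fold (adjusted p = 1.6e-06) higher at night, with 208, 154 and 212 on the night control arrays and 12.9, 19.9 and 19.8 on the day control arrays, and GTR1 (AT3G47960), a glucosinolate importer, 3.56-fold. Of 9 defence peptide genes 4 were higher in the day and 2 at night (median -1.71, -0.99 without night control replicate 2). With a filter at the 60th percentile 5 were left, 2 called in each direction, with a median of 0.64. The thionin gene THI2.2 (AT5G36910) read 34.9, 32.4 and 26.9 on the night control arrays and 139, 335 and 165 on the day control arrays and the defensin gene PDF1.4 (AT1G19610) was at least 6.81-fold (adjusted p = 2e-06) higher in the day, whereas ECS1 (AT1G31580) and LCR68 (AT2G02130) were 2.40-fold and 2.75-fold higher at night.

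Ethylene and WRKY lists held 5 tested genes each, too few to tell 0 night-higher calls from the 24.0% of all genes. Cold and auxin genes had shares near those of all genes in 1 or both directions. Of 17 cold and dehydration genes 3 were higher at night and 4 in the day (median 0.05, as low as -0.38 leaving out day control replicate 1, as high as 0.26 leaving out night control replicate 2), shares near those of all genes. With other settings the list had night-higher and day-higher counts of 4 and 1 without normalization, 2 and 2 without night control replicate 2 or day control replicate 2, 1 and 3 without night control replicate 3, and 4 and 2 without day control replicate 3. COR47 (AT1G20440), a dehydrin, read 740.0, 577 and 431 on the night control arrays and 2133, 2568 and 2822 on the day control arrays, a 4.3-fold difference, and COR15A (AT2G42540), which protects chloroplast membranes in the cold, was at least 3.25-fold (adjusted p = 0.00013) higher at night. Of 5 ethylene genes 3 were higher in the day and 0 at night (median -1.17). Night-higher and day-higher members came to 1 and 3 without day control replicate 1. EIN3 (AT3G20770), the transcription factor at the end of the ethylene pathway, read 519, 442 and 474 on the night control arrays and 1636, 1542 and 1797 on the day control arrays, a 3.47-fold difference (log2 -1.79 ± 0.16), and RTH (AT3G51040), a relative of the receptor regulator RTE1, was 3.32-fold higher in the day. Of 8 auxin genes 2 were higher in the day and 0 at night (median -0.51), where 22.5% of all genes were higher in the day. The counts higher at night and in the day were 0 and 4 with median centring, and 1 and 2 without day control replicate 1. WES1 (AT4G27260), which conjugates auxin to amino acids, read 144, 59.4 and 160.3 on the night control arrays and 1750, 1123 and 1467 on the day control arrays, an 11.9-fold difference, and ARL (AT2G44080), a growth regulator of the ARGOS family, was 4.39-fold higher in the day. Of 5 WRKY genes 2 were higher in the day and 0 at night (median -1.15). With a filter at the 60th percentile 1 WRKY gene was left, with a difference of -0.10 and no call. WRKY22 (AT4G01250), a factor of immune and dark-induced leaf ageing programmes, read 49.8, 24.6 and 31.9 on the night control arrays and 302, 210.2 and 212 on the day control arrays, and WRKY53 (AT4G23810), a regulator of leaf ageing, was at least 3.01-fold (adjusted p = 0.0013) higher in the day. Of 19 bZIP genes 13 were tested, with 5 higher in the day and 0 at night (median -0.33). Calls at night and in the day came to 0 and 0 without normalization, 0 and 8 with median centring, 0 and 3 without night control replicate 3 or day control replicate 3, and 1 and 6 without day control replicate 1. BZIP53 (AT3G62420), a factor of the low-energy response, read 453, 603 and 469 on the night control arrays and 844, 846 and 814 on the day control arrays, a 1.64-fold difference whose call was lost without normalization (adjusted p = 0.267).

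A further 13 lists, among them purine breakdown, the exocyst, vacuolar ATPase, gibberellin, protein folding in the endoplasmic reticulum, nitrate and peptide transporters, waxes and tetraspanins, held 101 tested genes. Of these 14 were higher at night and 25 in the day, with a median of -0.15. Over all lists, 656 genes were tested, 203 of them higher at night and 133 in the day. In the 46 lists described above, 22 directions had 0 calls by limma. At an unadjusted p under 0.05, 15 of these still had 0 members and the other 7 had 1 member each.

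**Figure D4:**
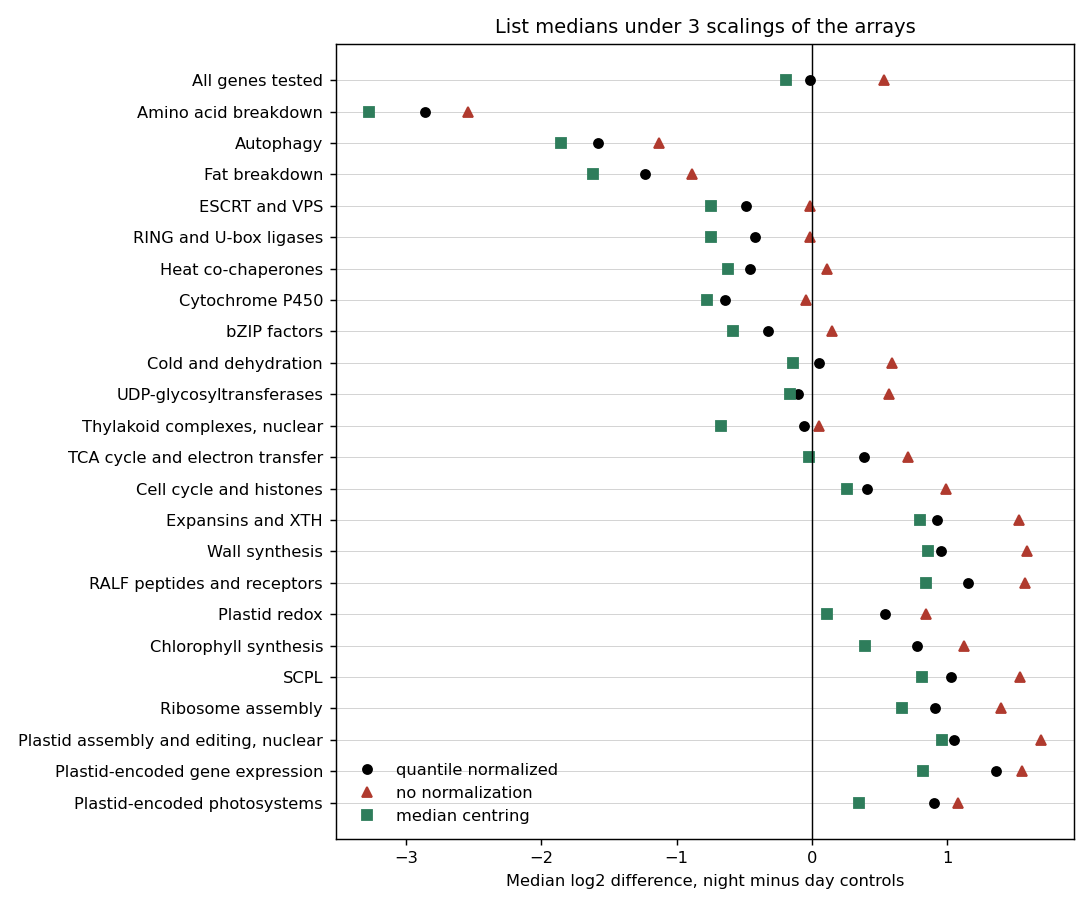
Median log2 difference, night minus day controls, of all genes and 23 lists with quantile normalization (circles), without normalization (triangles) and with median centring (squares). The median of amino acid breakdown stays below 0 and that of plastid assembly above 0 under the 3 scalings, while several lists near 0 change side.

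The rosettes sampled after 1 h of light gave the same time contrast on arrays that share none with the controls. There 4761 of 13647 probe sets were called (34.9%), and of 7278 genes 18.2% were higher at night and 14.6% in the day. Of the 6602 control calls 3186 were called in the same direction, 169 in the opposite one and 3247 were not called. The difference between the 2 contrasts was itself called for 1728 probe sets (12.7%), 1446 of them control calls, a count that was 439 without normalization, 2728 with median centring and 5308 with array weights.

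Of 26 nuclear genes for plastid assembly, 20 were higher at night in the pulsed arrays and 0 in the day, 18 were called higher at night in both contrasts, and the difference between contrasts was called for 2. Of 11 chlorophyll synthesis genes 6 were higher at night after light, with the difference called for 0. Of 14 amino acid breakdown genes 9 were higher in the day in the pulsed arrays, and the difference between contrasts was called for 5. Of 11 autophagy genes 5 were higher in the day, with the difference called for 7 and a median of -0.39 after light against -1.58 in the dark. Of 16 ribosome assembly genes 4 were higher at night after light, but the difference was called for 0. Of 25 cell cycle and histone genes 14 were higher at night after light, with the difference called for 3. Of the 67 plastid-encoded genes 0 were higher at night in the pulsed arrays and 1 in the day by limma, and the difference was called for 5. The medians of the 3 plastid-encoded lists were -0.56, -0.52 and -0.25 there, below 0 where the controls were above it. Pulsed arrays also stood apart for these genes, with a mean log2 signal of 8.46 on night pulse replicate 3 against 10.48 and 10.23 on the other 2, and of 9.50 on day pulse replicate 2 against 10.63 and 10.43.

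scpl35 differed by 4.0 ± 0.25 in the controls and 3.89 ± 0.25 in the pulsed arrays. CCL differed by -2.10 ± 0.14 and -2.12 ± 0.14. AT3G22240 differed by 4.0 ± 0.36 and 4.04 ± 0.36, and AT1G07040 by -4.89 ± 0.19 and -4.18 ± 0.19. The day-higher breakdown genes IVD, MCCB and ETFQO differed by -3.45 ± 0.17, -2.57 ± 0.19 and -3.48 ± 0.20 in the pulsed arrays, against -4.56 ± 0.17, -4.03 ± 0.19 and -4.12 ± 0.20 in the dark. ATG8B differed by -2.18 ± 0.26 after light against -3.97 ± 0.26.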

How the data were processed

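Aerial rosettes were profiled on 12 Affymetrix ATH1 arrays in 4 groups of 3, of which the night and day controls were compared. The authors deposited a linear intensity per probe set, and MAS5 is named per the submitters' processing notes. No source used here gives its version or target level. The arrays did not share a level, so the 22746 probe sets that are not Affymetrix controls were taken as log2(signal + 2) and quantile normalized over 12 arrays. The 13647 with a mean above the 40th percentile went into 1 fit of all 4 groups with a shared spread and 8 residual degrees of freedom, using lmFit and a trended, two-sided eBayes (limma 3.58.1, R 4.3.3). P-values were Benjamini-Hochberg adjusted over them. No detection calls were used.

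Probe sets were named through the platform annotation and updated with the RefSeq gene table. Of 22746, 13513 name 1 gene, 503 name several and 8730 are not listed there, and 13436 matched the RefSeq table. Where a gene had several tested probe sets, that with the highest mean was used. Of 53 such genes, 1 had probe sets called in opposite directions.

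Named genes were the 12 largest differences in each direction among called probe sets with 1 gene name and no overlap between groups, every gene of the list of 6 clock-linked genes with a named probe set, and, for each list, up to 5 members with the smallest p and up to 3 called the opposite way. Members and lists were chosen with earlier results of these data known, and most lists were drawn from genes that had passed the filter on low signal, so their direction is not independent evidence. The fit was tested on simulated data. Same-numbered night and day control arrays deviated together with correlations of 0.0813, 0.0535 and 0.0422, under the 0.1 set for pairing, so replicates were not paired. For same-numbered night and day pulse arrays the correlations were 0.446, 0.351 and -0.0236. The fit also left these arrays unpaired. Alternatives covered the normalization, the pseudocount, the filter, the arrays fitted, a replicate block, the trend, array weights, dim signals and each control array left out.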

Additional observations from a re-analysis of the deposited data

Results flagged for a closer look

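The time contrast of the pulsed arrays shares no array with that of the controls, and the difference between the contrasts was tested within the limma fit. It was called for 1728 of 13647 probe sets. Among the 24 largest control differences, 5 with means of at least 21.75, the filter bound, in all 4 groups differed between the contrasts. AT2G32150 differed by -5.29 ± 0.24 in the dark and -1.73 ± 0.24 after light, a difference of -3.56 ± 0.34 (adjusted p = 4e-05). MGL, methionine gamma-lyase, differed by -5.00 ± 0.23 and -2.95 ± 0.23, a difference of -2.05 ± 0.33 (adjusted p = 0.0012). AT4G33150 (LKR/SDH) differed by -5.74 ± 0.25 and -4.52 ± 0.25, a difference of -1.22 ± 0.36 (adjusted p = 0.039). Among night-higher genes, AT3G48420 differed by 3.83 ± 0.16 and 2.1 ± 0.16, a difference of 1.74 ± 0.23 (adjusted p = 0.00041), and AT4G30020 by 3.83 ± 0.26 and 2.46 ± 0.26, a difference of 1.38 ± 0.36 (adjusted p = 0.024). All 5 differences were smaller in size after light, and each was still called there in the same direction. The 5 were picked for a large control difference, which by itself favours a smaller one after light. Their shared decrease is therefore not evidence on genes at large.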

How the results depend on the processing

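The number of probe sets called was 6602, and with 1 control array left out it lay between 5533 and 6613. The day-higher count of 3091 moved to 1062 without normalization and to 4679 with array weights. The night-higher share of 53.2% moved to 81.1% without normalization and 39.2% with median centring. The 1728 differences between contrasts became 439 without normalization, 2728 with median centring and 5308 with array weights, and lay between 1135 (without night control replicate 3) and 2660 (without day control replicate 1). Of 156 named genes called, 149 kept their call and direction under all alternatives run, 2 were lost without normalization, 2 with median centring, 3 when 1 control array was left out and 1 without the filter. Most named genes were chosen for a large difference or a small p, so this count does not measure the stability of calls at large. Of the 92 night-higher and day-higher list counts, 29 moved by more than 1.5 times without normalization, 25 with median centring, 34 with array weights and 18 with a filter at the 60th percentile. With a replicate block, by replicate number, 6928 probe sets were called (7003 with control arrays alone), and 0 named calls were lost. The pulsed contrast then had 5102 calls in place of 4761, and the difference between contrasts 2019 in place of 1728. No detection calls were used, so folds in which a group mean lay under 21.75 were given as bounds.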
